A study of Mus musculus with 4 samples.

Results

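Myelin and Schwann cell genes were examined on 4 one-colour Affymetrix arrays of mouse eye tissue that the labels name retina. The genes were Pmp22 and Prx of peripheral myelin, Mog of central myelin, Mbp, Mag and Cnp of both kinds, and Sox10 and Erbb3 of the glia that make myelin. Every probe set annotated with exactly 1 symbol among these 8 was taken. This gave 19 probe sets of 7 genes, out of 45101 probe sets and 18193 genes. No probe set carried the symbol Prx alone, so this gene has no value here.

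The control group held 2 arrays of control animals, and the labels describe the second as a technical replicate of the first, so they count as 1 sample. The transgenic group held 2 arrays of animals whose aqueous humor contained myocilin, a secreted glycoprotein, from a transgene. That fluid also reaches the back of the eye, and the labels pose the question of what abundant myocilin there does to the retina. Strain, age, the promoter of the transgene and the number of animals per array are not given in the sources used here, and the gene of the transgene was not analysed here. Whether the transgenic arrays stand for separate animals is not stated. The p-values rest on the spread between these 2 arrays, part or all of which may be technical.

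Myelin is a stack of glial membrane wrapped around an axon. In peripheral nerves Schwann cells make it, with PMP22 and periaxin among its proteins, while in the brain and optic nerve oligodendrocytes make it, with MOG on its outer surface. In the mouse, ganglion cell axons run without myelin inside the retina and gain it behind the eye, whereas the nerves of the cornea, iris and eye muscles carry Schwann cells. SOX10 drives glial and melanocyte genes, and ERBB3 receives neuregulin signals from axons. Several of these genes are also active outside glia: Pmp22 in fibroblasts and epithelia, Erbb3 in epithelia and Sox10 in melanocytes.

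The start regions of Mog, the central gene, and of Pmp22 and Cnp are shown to compare their CpG content, a feature of the sequence that the arrays do not measure. Of the 8 genes, 5 had entries in the RefSeq promoter table for GRCm38.p6, with 10 windows in all, each read here over the 250 bases before the start. They were Pmp22, Mag, Mog, Cnp and Prx. The lines below give the only Mog window (chr17:37023399-37023648, minus strand), the first 2 of the 4 Pmp22 windows in genome order (chr11:63128732-63128981 and chr11:63131207-63131456, plus strand) and the only Cnp window (chr11:100574689-100574938, plus strand). Letters run 5′ to 3′ on the strand of the gene, and capitals mark CG dinucleotides.
Mog: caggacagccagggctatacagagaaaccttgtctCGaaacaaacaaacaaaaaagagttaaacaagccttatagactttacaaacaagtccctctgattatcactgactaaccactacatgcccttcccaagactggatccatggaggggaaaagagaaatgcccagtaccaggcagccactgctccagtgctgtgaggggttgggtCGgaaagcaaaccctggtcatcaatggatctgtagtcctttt
Pmp22, first window: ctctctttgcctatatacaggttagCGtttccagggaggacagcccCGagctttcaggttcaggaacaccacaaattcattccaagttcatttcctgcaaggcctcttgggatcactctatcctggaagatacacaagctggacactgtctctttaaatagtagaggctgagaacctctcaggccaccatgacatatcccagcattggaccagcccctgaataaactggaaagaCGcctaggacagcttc
Pmp22, second window: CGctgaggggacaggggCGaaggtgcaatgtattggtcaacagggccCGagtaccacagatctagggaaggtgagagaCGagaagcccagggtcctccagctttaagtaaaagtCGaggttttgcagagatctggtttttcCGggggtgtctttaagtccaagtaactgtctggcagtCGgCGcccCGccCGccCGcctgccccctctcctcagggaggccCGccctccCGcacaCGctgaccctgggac
Cnp: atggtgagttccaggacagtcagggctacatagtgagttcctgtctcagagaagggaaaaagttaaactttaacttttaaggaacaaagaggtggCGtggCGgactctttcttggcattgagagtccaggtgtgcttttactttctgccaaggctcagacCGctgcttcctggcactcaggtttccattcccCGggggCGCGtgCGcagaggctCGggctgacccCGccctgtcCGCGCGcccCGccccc

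The Mog window held 2 CG dinucleotides, an observed over expected ratio of 0.147, and the first Pmp22 window held 3, a ratio of 0.206. The second Pmp22 window held 14 with a ratio of 0.599, and the Cnp window held 13 with a ratio of 0.636. The Pmp22 windows not printed above held 14 and 27, with ratios of 0.534 and 0.798. The Prx window had a ratio of 0.101, and the Mag windows had ratios of 0.105, 0.113 and 0.128. The ratios of Prx, a peripheral gene, and of Mag lay below that of Mog, so a low CpG content did not set the central gene apart. The median ratio over 32851 windows of this length was 0.373. Pmp22 was reported by 1 probe set, so its signal was not split by start. The letters ACAAAG, a core that SOX proteins can bind, were searched on both strands and occurred in 3 of the 10 windows: 1 of Cnp, 167 bases before the start, and 2 of Mag, 126 and 67 bases before theirs. The Mag windows overlap, so these are the same letters. Of all windows, 16.5% held ACAAAG. A match of letters is a description and not a binding site.

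Pmp22 and 1 probe set of Erbb3 gave signals far above the filter on all 4 arrays, probe sets of Mbp, Cnp and Sox10 lay nearer to it, and Mag and Mog had means below it. Signals are linear intensities in arbitrary units, and each array had a mean of 150 after trimming 2% at each end. Probe sets with a mean log2(signal + 16) above the 40th percentile, a signal of about 30, were tested. Of the 19 probe sets 15 passed this filter, and they belong to 5 genes, while the only probe sets of Mag and Mog did not. The brightness of a probe set also depends on its sequence. Percentiles, counts above a signal of 150 and summed signals given below therefore describe probe sets and do not rank the RNA levels of genes.

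**Figure D1:**
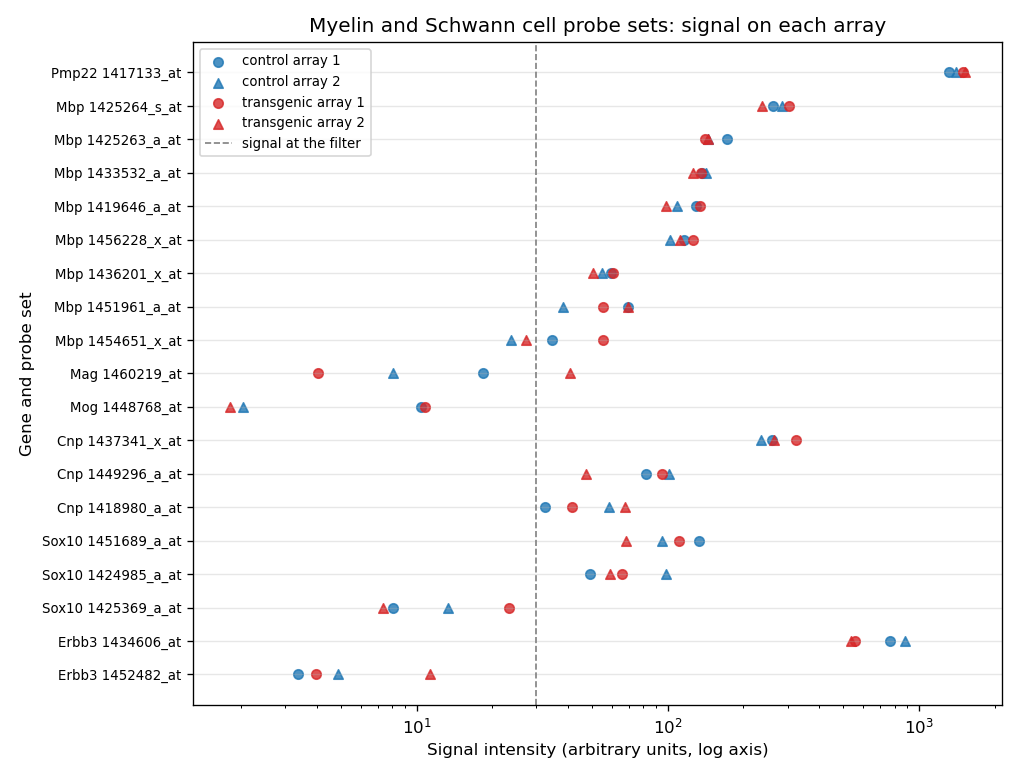
Signal of each of the 19 probe sets (rows) on each of the 4 arrays, on a log axis in arbitrary units; the dashed line marks the signal of about 30 at the filter. Pmp22 lies between 1313 and 1529 on every array, Mog between 1.81 and 10.8, and the brighter Erbb3 probe set shows the widest gap between blue control and red transgenic points.

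No tested probe set of these genes passed limma's test at an adjusted p under 0.05, 0 of 15, against 0.0777% of the 27022 probe sets tested over the whole array. At an unadjusted p under 0.05 there was 1 of 15, that of Erbb3, against 7.06% of all. Both transgenic arrays lay above both control arrays for 2 of the 15, where 21.1% of all probe sets tested did, and below them for 2, where 23.6% did. Thus 4 of the 15 had groups that did not overlap, against 44.7% of all. With 1 control sample against 2 transgenic samples, a one-sided exact permutation test cannot go below p = 0.333 for any of them. The median log2 difference over the 7 genes, each by its brightest probe set, was 0.0015, which is the value of Mog, below the filter. Over the 15 tested probe sets of these genes the median was −0.030, beside −0.018 over all probe sets tested.

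**Figure D2:**
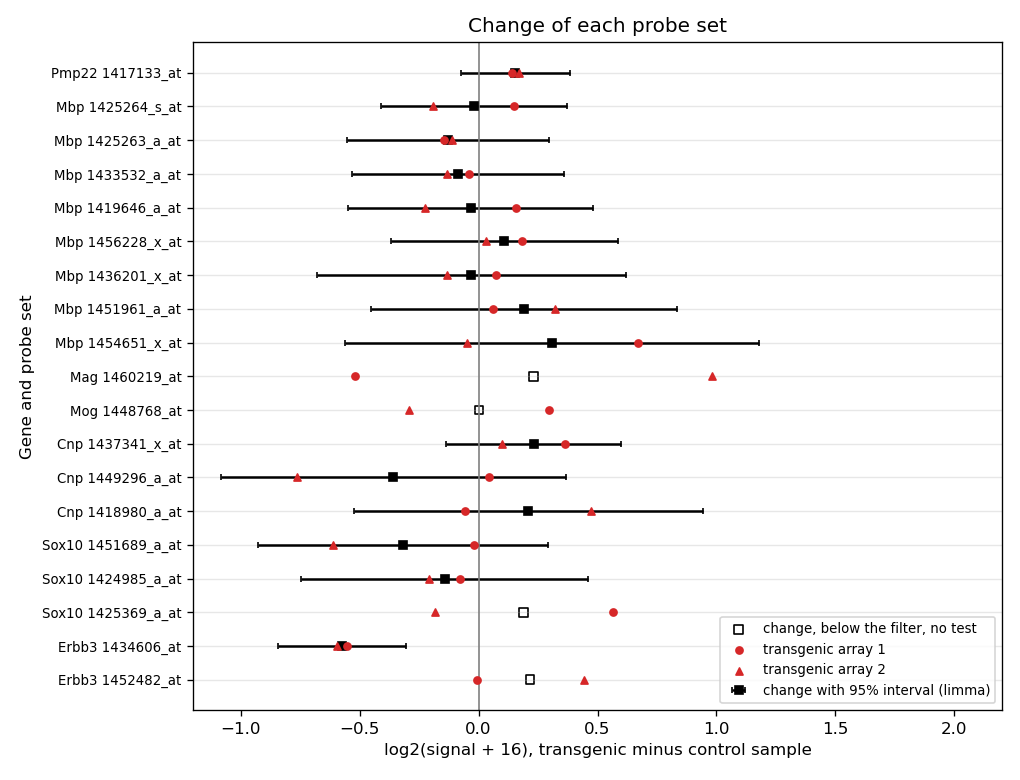
Difference in log2(signal + 16) between transgenic and control for each of the 19 probe sets (rows); squares are means with limma's 95% interval, open squares are probe sets below the filter without a test, and red points are the transgenic arrays taken singly against the control mean. All intervals include 0 except that of the brighter Erbb3 probe set, which runs from −0.84 to −0.30.

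Pmp22, which encodes a tetraspan protein of compact peripheral myelin, was bright on all arrays and slightly higher in the transgenic samples. The control arrays gave 1313 and 1403 and the transgenic arrays 1496 and 1529. The groups did not overlap, and the gap between them was close in size to the difference between the control arrays. A control mean of 1358 stood against a transgenic mean of 1513 ± 23.4 (SD, n = 2), a log2 difference of 0.15 ± 0.11 (SE; limma adjusted p = 0.842), with a 95% interval from −0.08 to 0.38. The median difference of probe sets in the same range of brightness was 0.112. After quantile normalization Pmp22 stood at 0.09.

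Mbp, which encodes myelin basic protein of both central and peripheral myelin and, from an upstream start, golli proteins of other cells, had 8 probe sets, all tested. The brightest gave 263 and 284 in control and 305 and 237 in transgenic arrays. The transgenic arrays were the highest and the lowest of the 4, so the groups overlapped. Its control mean was 273 and its transgenic mean 271 ± 47.9 (SD, n = 2). The log2 difference was −0.02 ± 0.18 (SE; limma adjusted p = 0.995), with a 95% interval from −0.41 to 0.37, and its sign turned under quantile normalization and median centring. The next probe set had 173 and 145 in control against 141 and 145 in transgenic samples, and overlapped as well. Over the 8 probe sets the differences ran from −0.13 to 0.31, and 7 of 8 overlapped between groups. The exception was a probe set at 137 and 143 on the control and 136 and 126 on the transgenic arrays, a difference of −0.09. The dimmest, at 34.5 and 23.9 against 55.4 and 27.3, gave the difference of 0.31, and its control arrays differed by 0.34 on the same scale. The 8 probe sets share 1 gene and the same RNA and are not independent measurements.

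Cnp, which encodes the phosphodiesterase of non-compact myelin in both systems, gave different directions on its 3 probe sets. The brightest gave 260.5 and 235 in control and 323 and 266 in transgenic arrays, so the groups did not overlap, though by a narrow gap. The control mean of 248 and the transgenic mean of 294 ± 40.2 (SD, n = 2) made a log2 difference of 0.23 ± 0.17 (SE; limma adjusted p = 0.863). The second had 82.0 and 101 in control against 94.5 and 47.1 in transgenic samples, a difference of −0.36 that rests on the second transgenic array. The third had 32.4 and 58.4 against 41.7 and 67.4, a difference of 0.21. Both dimmer probe sets overlapped between groups. The mean over the 3 probe sets was 0.027.

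Mag, which encodes the myelin-associated glycoprotein that faces the axon, was dim on 3 of the 4 arrays. Its signals were 18.5 and 8.05 in control and 4.07 and 40.8 in transgenic samples. The transgenic arrays gave the lowest and the highest value, and only the second exceeded the signal of about 30 at the filter. No test was made, and the mean log2 difference of 0.23 is made of −0.52 for the first and 0.98 for the second transgenic array.

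Mog, the central myelin gene of the set, was at the bottom of the scale. The control arrays gave 10.4 and 2.04, a mean of 6.23, and the transgenic arrays 10.8 and 1.81, a mean of 6.31 ± 6.37 (SD, n = 2). The technical replicates of the control differed as much as the transgenic arrays did, and the groups overlapped. By mean log2 value it stood at percentile 9.99 of all probe sets. At this signal a difference between the groups was not detectable, and the log2 difference was 0.0015.

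Peripheral and central myelin genes were set against each other by the difference of their changes, with Pmp22 for the first, since Prx has no value, and Mog for the second. The change of Pmp22 minus that of Mog was 0.15 ± 0.44 (SD, n = 2) on the log2 scale, at −0.16 for the first and 0.46 for the second transgenic array. The control arrays lay at −0.32 and 0.32 around their own mean, a range that holds the first transgenic array and lies below the second. The sign of this difference was negative without the first control array, at −0.17. It was not tested, because 1 sample against 2 is too few for an exact permutation test. A difference between peripheral and central myelin in their response was therefore not detectable, with the spread set by Mog. Pmp22 stood at percentile 97.1 of all probe sets by mean log2 value, and the mean signal of Mog was below the filter in both groups.

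Wider lists of myelin genes gave no call. The lists were chosen with earlier results of these data known. Of 10 peripheral genes, 7 had a probe set and 4 were tested; limma called 0, and 0 had an unadjusted p under 0.05. Their median difference was 0.09, beside −0.018 for all probe sets tested. Egr2, the transcription factor of Schwann cell myelination, stood at 0.29 ± 0.34 and Drp2, a partner of periaxin, at 0.03 ± 0.25 (log2, SE). The Egr2 signals lay near the filter, at 29.2 and 36.5 in control and 47.8 and 39.4 in transgenic samples. Cldn19, a tight junction gene of Schwann cells that epithelia also use, stood at −0.27 ± 0.38. Only Pmp22 of the 7 exceeded a mean signal of 150.

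Of 15 central myelin and oligodendrocyte genes, all had a probe set and 6 were tested. Limma called 0 of 6, and 1 had an unadjusted p under 0.05, where 7.06% of all probe sets tested had one. The median difference of the 6 was 0.02. The other 9 lay below the filter, and 1 of the 15, Bcas1, exceeded a mean signal of 150. Among the genes below the filter, Olig1, the oligodendrocyte factor, lay between 2.23 and 13.4, Olig2 between 1.82 and 14.7 and Mobp, a gene of compact central myelin, between 12.6 and 29.4. Among those above it, Bcas1 lay between 343 and 449, Myrf, a transcription factor of myelin genes, between 104 and 155 and Aspa, the aspartoacylase gene of oligodendrocytes, between 123 and 151. These 6 are named after their values were seen. The gene with the unadjusted p under 0.05 was Ermn, which encodes the cytoskeletal protein ermin of oligodendrocytes. It had signals of 68.0 and 79.7 in control and 165 and 156 in transgenic samples. Both transgenic arrays were above both control arrays, at 0.98 ± 0.21 (log2, SE), but the adjusted p in limma was 0.231. The other tested genes overlapped between groups: Bcas1 stood at 0.12, Opalin at −0.11 and Cldn11 at −0.04.

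Of 13 genes used by both kinds of myelin, 12 had a probe set and 7 were tested. Limma called 0 of 7, 0 had an unadjusted p under 0.05, and the median difference was 0.02. Mal, a membrane raft protein gene of myelin that epithelia also express, was bright, at 8379 and 8401 in control and 7889 and 7839 in transgenic samples, a difference of −0.09 ± 0.09 (log2, SE). Plekhb1 stood at 0.26 and Gal3st1, the enzyme that makes sulfatide, at −0.21. Neither passed.

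Sox10, the transcription factor of Schwann cells, oligodendrocytes and melanocytes, had 3 probe sets that did not agree in sign. The brightest gave 133 and 94.9 in control and 111 and 68.1 in transgenic arrays. The first transgenic array lay between the control arrays and the second below them. Means of 114 for control and 89.4 ± 30.2 (SD, n = 2) for transgenic gave a log2 difference of −0.32 ± 0.28 (SE; limma adjusted p = 0.897). The second probe set had 49.1 and 98.6 against 65.9 and 58.7, a difference of −0.14, and its control arrays differed by 0.82 on the log2 scale. The third was below the filter at 8.06 and 13.3 against 23.2 and 7.36. All 3 overlapped between groups. Among 15 transcription factors of myelination, 9 were tested and limma called 0, with 0 at an unadjusted p under 0.05. Both transgenic arrays were below both control arrays for 2 of the 9, Yy1 at −0.16 and Tead1 at −0.22, where 23.6% of all probe sets tested were. They were above for 1, Egr2 at 0.29 with signals near the filter, where 21.1% were.

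Erbb3, the neuregulin receptor that Schwann cells need for survival and myelination, showed the widest separation of the set, though it did not pass. The brighter of its probe sets gave 768 and 878 in control and 555 and 538 in transgenic arrays. Both transgenic arrays were below both control arrays, and the gap was wider than the difference within either group. The control mean was 823 against a transgenic mean of 546 ± 11.6 (SD, n = 2), a ratio of 1.51 of control over transgenic. The log2 difference was −0.57 ± 0.12 (SE), with a 95% interval from −0.84 to −0.30, an unadjusted limma p of 0.00063 and an adjusted p of 0.231. Over the array 72 probe sets had a smaller p. Of 1351 probe sets of like brightness, 11 had a larger absolute difference. Without the first control array the difference was −0.67 and without the second −0.48. With the 4 arrays as separate samples, which treats the technical replicates of the control as independent, the adjusted p was 0.0428. The other Erbb3 probe set was far below the filter, at 3.36 and 4.88 in control and 3.99 and 11.3 in transgenic samples, and did not separate the groups.

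**Figure D3:**
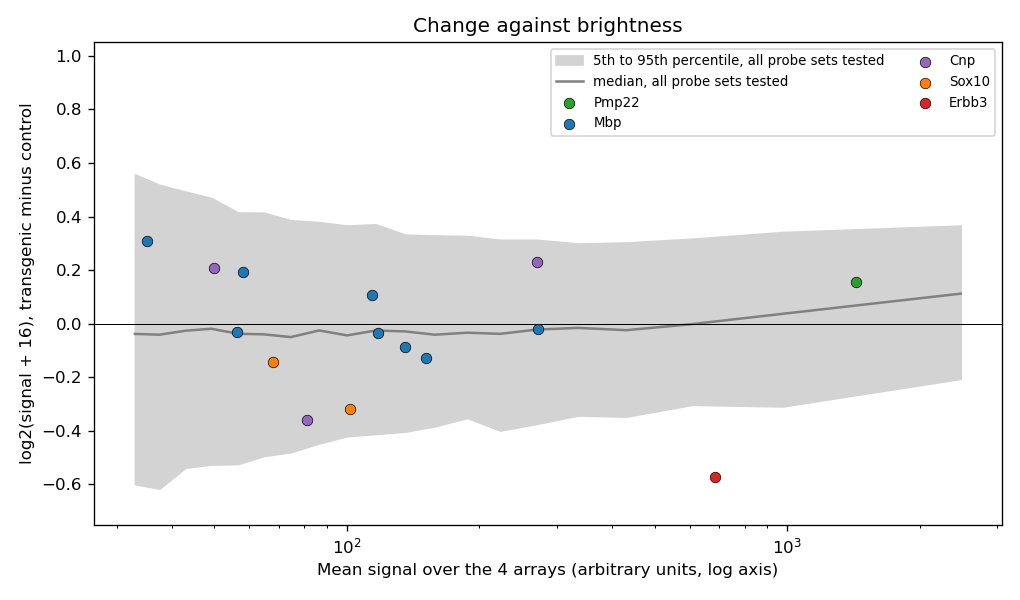
Difference in log2(signal + 16), transgenic minus control, against mean signal on a log axis for the 15 tested probe sets (points, coloured by gene), over the median (line) and the 5th to 95th percentile (grey) of all 27022 probe sets tested, in 20 classes of brightness. Erbb3 at −0.57 lies below the grey band, and the other 14 probe sets lie within it.

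Genes of neuregulin and ErbB signalling gave no call. Of 13 genes 10 were tested and limma called 0. An unadjusted p under 0.05 was reached by 2, both lower, where 7.06% of all probe sets tested had one. Besides Erbb3 this was Egfr, the epidermal growth factor receptor, at 548 and 619 in control and 437 and 497 in transgenic samples, a log2 difference of −0.31 ± 0.14 (SE; limma adjusted p = 0.679). Erbb2, the coreceptor of ERBB3, had 144 and 129 against 85.0 and 132, which overlap, and Nrg1, which encodes the axonal ligand, had 69.5 and 74.6 against 56.7 and 48.7, which do not. Their differences were −0.32 and −0.36, with limma adjusted p of 0.882 for each. The median of the list was −0.14.

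The other Schwann cell lineage genes gave differences in both directions. Of 10 genes 9 were tested and limma called 0. An unadjusted p under 0.05 was reached by 2, both lower, where 7.06% of all probe sets tested had one. Besides Erbb3, which the neuregulin list also holds, this was L1cam, a neural and glial adhesion gene. The L1cam signals were 304 and 284 in control and 224 and 203 in transgenic samples. This made a difference of −0.44 ± 0.17 (log2, SE) with a limma adjusted p of 0.617. Cdh19, a cadherin of Schwann cell precursors, had 183 and 159 against 138 and 128, a difference of −0.33. Gfra3, a receptor subunit for artemin, had 47.3 and 91.9 against 115 and 68.2, which overlap. The median was −0.04 and turned to 0.0004 after quantile normalization. In bulk tissue, fewer cells of a type and less RNA per cell cannot be told apart.

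Axons, nodes and astrocytes would accompany nerve in a dissection, and limma called no gene of these 3 lists. Of 13 axon genes 0 exceeded a mean signal of 150, 9 were tested, limma called 0, and 0 had an unadjusted p under 0.05. The median was −0.26, with 7 of the 9 below 0, where 14356 of all 27022 probe sets tested were. Stmn2 stood at −0.51 ± 0.36 (log2, SE). Its signals lay near the filter, at 35.5 and 58.7 in control and 30.2 and 25.1 in transgenic samples, and its control arrays differed by 0.54. Nefl and Ina, both of neurofilaments, stood at −0.34 each, and Gap43, a growth cone gene that Schwann cells also use, at 0.50 ± 0.29. Of 5 tested node of Ranvier genes 1 had an unadjusted p under 0.05, where 7.06% of all probe sets tested had one. It was Ank3, the node scaffold that epithelia also use, at −0.36 ± 0.15 (log2, SE) with a limma adjusted p of 0.665. Cntn1 stood at 0.25. These 2 were the node genes with a mean signal above 150, Cntn1 between 561 and 699 and Ank3 between 256 and 338. Of 6 astrocyte genes limma called 0, with 0 at an unadjusted p under 0.05, and the median was 0.09. Gja1, a gap junction gene that many other cell types also use, was the 1 above a mean of 150, between 7381 and 8218. Aqp4, a water channel gene, lay between 136 and 159, Slc1a3, a glutamate transporter gene, between 74.2 and 94.9 and Gfap, the glial filament gene of optic nerve astrocytes, between 24.0 and 49.7.

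Lists of other cell types are given beside these. Erbb3 is also active in epithelia but is not in the surface epithelium list. All 8 genes of that list exceeded a signal of 150, and limma called 0. Of the 8, however, 4 had an unadjusted p under 0.05, 3 of them lower, where 7.06% of all probe sets tested had one. Esrp1, an epithelial splicing regulator, had 896 and 755 in control against 538 and 498 in transgenic samples, a difference of −0.65 (limma adjusted p = 0.204). Cdh1, the epithelial cadherin, stood at −0.56 (0.212), Trp63 at −0.37 and Krt12, the corneal keratin, at 0.22. The median over the 8 was −0.17, with both transgenic arrays below both control arrays for 5 genes and above them for 2. The summed signal of the list, most of it from Krt12 and Krt5, was 29824 to 30342 in control and 30158 to 31175 in transgenic samples. After quantile normalization the median was −0.19 and limma called 1 of the 8. The part of these cells in the Erbb3 difference was not tested.

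Melanocytes share Sox10 and Erbb3 with glia, but the list of 11 pigment cell genes does not tell melanocytes from other pigment cells. Its summed signal, most of it from Dct, Pmel and Tyrp1, was 35086 to 35128 in control and 38372 to 41496 in transgenic samples. Limma called 0 of 11, and 4 had an unadjusted p under 0.05, 3 higher and 1 lower, where 7.06% of all probe sets tested had one. The median was 0.13 with 2 of 11 below 0, and 0.0095 with 4 of 11 below 0 after quantile normalization. The higher ones were Tyr, the tyrosinase gene, at 0.44, Mlana at 0.27 and Dct at 0.21. Gpr143, at 0.25, was not among them. The lower one was Kit, a receptor of melanocytes and mast cells, at −0.69 (limma adjusted p = 0.219), from 584 and 430.3 to 309.9 and 299. The part of melanocytes in the values of Sox10 and Erbb3 was not tested.

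Some genes of skeletal muscle and fibroblasts, whose tissues carry peripheral nerve, rose in the transgenic samples. Of 7 muscle genes, limma called 3 higher, Mb, Myl1 and Mylpf, and the summed signal was 10379 to 10713 in control and 17714 to 17715 in transgenic samples. Of 6 fibroblast genes limma called 1 higher, Kera, and the sum was 20149 to 21245 in control and 27065 to 27243 in transgenic samples. The part of either tissue in the difference of Pmp22 was not tested. Of 6 photoreceptor genes with a probe set none exceeded a mean signal of 150, with sums of 309 to 334 in control and 227 to 309 in transgenic samples. These probe sets for the defining cells of the labelled tissue were thus not bright. The Y-linked gene Eif2s3y fell from 369.7 and 364 to 160.2 and 154 (limma adjusted p = 0.0372). The other 3 sex-linked genes tested were not called but did not overlap between groups either: the Y-linked Uty stood at −0.75 (0.446), the Y-linked Kdm5d at −0.43 (0.822) and Xist, the RNA of the inactive X chromosome, at 0.42 (0.473). The part of animal sex in any value above was not tested.

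**Figure D4:**
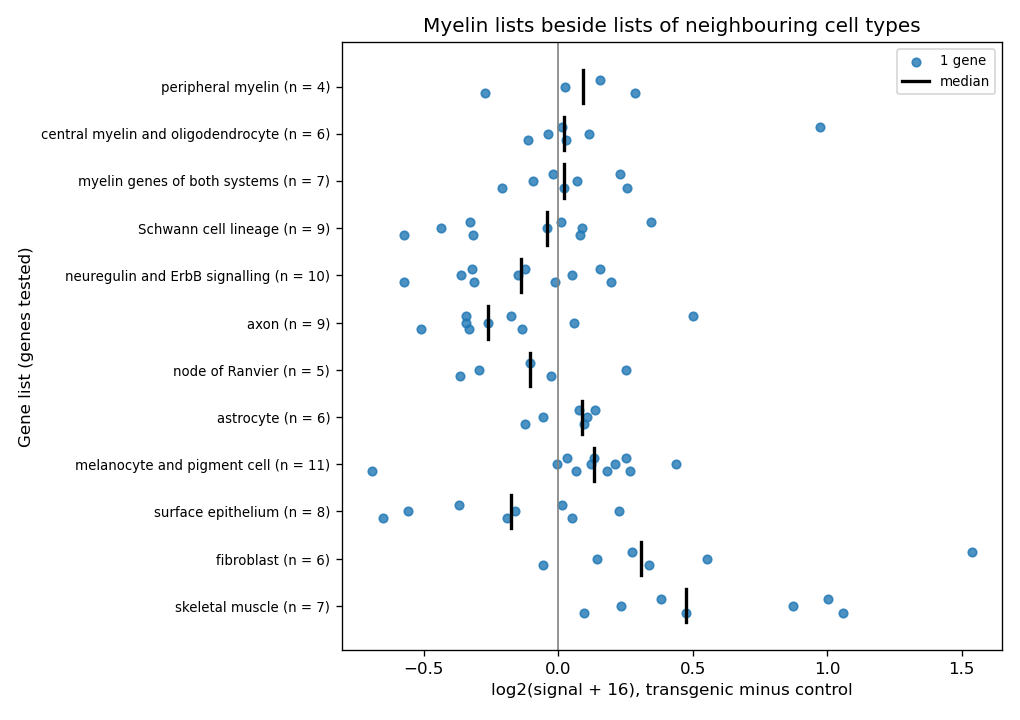
Difference in log2(signal + 16), transgenic minus control, of each tested gene (points, 1 probe set per gene) in 12 gene lists (rows, with the number of genes tested), with the median of each list as a black bar. The myelin and Schwann cell lists centre between −0.04 and 0.09, axon genes at −0.26 and skeletal muscle genes at 0.48.

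The genes whose pattern over the 4 arrays was most like that of 3 members were found by Euclidean distance between log2 values after taking off the mean of each gene, over 12722 genes with a tested probe set. For Erbb3 the nearest were Cdk12, Stc1 and Atp2a3, at distances of 0.0397, 0.0537 and 0.0555, against a median of 0.636. Their differences between groups were −0.61, −0.58 and −0.53, near that of Erbb3 by the way they were chosen, and none passed in limma. For Pmp22 they were Ndufb10, Zfp830 and H2ax, at 0.00964, 0.0141 and 0.0168, but 2763 genes lay within 0.2 of its nearly flat pattern. For Mog they were Mfsd13a, Fcgr4 and Pianp, at 0.0256, 0.0321 and 0.0354. By the same choice each was, like Mog, higher on the first than on the second array of both groups. With 4 arrays, such nearness describes these hybridisations only.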

How the data were processed

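Total RNA of 4 arrays was measured, 2 of control and 2 of myocilin transgenic eyes. The values deposited by the authors are linear signal intensities per probe set, with software and settings not given in the sources used here. No genome build was named for them. Gene names came from the platform annotation, in which 34958 probe sets had 1 symbol, 932 several and 9211 none, and updating through gene identifiers changed 0 symbols.

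Here 64 array controls were left out and intensities were transformed as log2(signal + 16), which understates changes of dim probe sets. The model was limma 3.58.1 in R 4.3.3 with the control arrays averaged, an intensity trend in the moderation, two-sided p-values and Benjamini-Hochberg adjustment over all 27022 probe sets above the filter. It had 1 residual and 10.3 prior degrees of freedom, and took the spread of the single control sample to equal that of the transgenic samples. Over the probe sets tested, the log2 difference between the 2 transgenic arrays had an SD of 0.317. That between the technical replicates of the control had an SD of 0.296. Precision is limited by the number of arrays. A gene of several probe sets was represented by the one with the highest mean.

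Members, lists and tests were chosen with earlier results of these data known. All 8 members were to be named, and up to 4 tested genes with the largest absolute difference in each other list, plus any past the threshold, and 3 nearest patterns for Pmp22, Mog and the member with the largest difference. Alternatives were quantile normalization, median centring, a pseudocount of 1 or 64, the filter removed or set at the 60th percentile, the 4 arrays as separate samples with and without a replicate block, no trend, robust moderation, leaving out each array, and the mean over probe sets of a gene.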

Additional observations from a re-analysis of the deposited data

How the results depend on the processing

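Of 12 alternatives with a test, 10 called 0 of these genes' probe sets and 2 called 1, that of Erbb3, namely those with the 4 arrays as separate samples without a replicate block (adjusted p = 0.0428) and with it (5.14e-05). Same-numbered arrays did not deviate clearly together (correlation 0.0955 over probe sets tested), so the numbers are not taken to pair the arrays. The count over all probe sets moved from 21 to 39 after quantile normalization (20 higher and 19 lower), 56 after median centring (47 and 9), 135 with separate arrays and 1740 with the replicate block. Without the filter or without the intensity trend it was 0 in limma, where 2181 and 1059 had an unadjusted p under 0.05, and it ran from 34 to 42 when a control array was left out. Leaving out a transgenic array left no test. The causes were not tested.

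Alternatives in the filter, trend, moderation or sample treatment leave a log2 change as it is, so 9 of the 15 could move it. The change of Erbb3 stayed below 0 in these 9, from −0.67 to −0.18, the latter as the mean with its dim probe set. The change of Mbp turned to 0.0099 after quantile normalization, 0.0098 after median centring, 0.032 without control replicate 2 and 0.039 as the mean over its probe sets, and ran from −0.19 to 0.15 when an array was left out. Pmp22 stayed above 0, from 0.09 to 0.20, as did Cnp, from 0.027 to 0.36. The peripheral minus central change ran from −0.17 to 0.48 and the median over the genes from −0.19 to 0.14, the ends in each case being values with an array left out. Low signal limits Mag, Mog and the dim probe sets of Sox10 and Erbb3.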
